A study of Homo sapiens with 12 samples.

Results

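The siRNA libraries against HIF1A and against HIF2A were compared directly with each other, without the control libraries, in RCC4 cells. RCC4 cells are a long-established culture of human clear cell renal cell carcinoma (ccRCC) with defective VHL, so that the HIF-α proteins persist at normal oxygen. The comparison took the 3 libraries labelled HIF1A siRNA and the 3 labelled HIF2A siRNA, 6 of the 12 samples of the series, matched by replicate number. Cells of the first group received 1 nM of a siRNA pool against HIF1A plus 1 nM control siRNA, and cells of the second 1 nM of a pool against HIF2A (the gene symbol is EPAS1) plus 1 nM control siRNA. Both groups therefore held the same 2 nM of total siRNA and the same dose of control siRNA, and RNA was taken after 48 h. The other 6 libraries, given here only as reference levels or as a separate test, held 2 nM control siRNA or 1 nM of each HIF pool together (both siRNAs). No untransfected cells are among the groups, all values come from 1 line, and the labels do not say that the replicates were separate cultures, so that p-values measure the spread between these samples.

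HIF is a transcription factor made of an oxygen-regulated α subunit, HIF-1α or HIF-2α, and the stable β subunit ARNT. At normal oxygen the EGLN enzymes hydroxylate the α subunits, and VHL, part of a ubiquitin ligase, then marks them for degradation. Without VHL both α subunits accumulate and bind the short hypoxia response element, whose core is ACGTG or GCGTG, near target genes. HIF-1 is best known for glycolytic enzymes, and HIF-2 for growth and erythropoietin genes. In ccRCC HIF-2 is the better known driver of tumor growth, and it is the target of belzutifan.

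Transcripts were counted per gene, and CPM is a gene's count relative to the total count of its library, on the customary scale and with TMM factors (which adjust totals for composition). Levels are not per length, so they are compared between libraries and not between genes. Log2 fold changes are HIF1A siRNA minus HIF2A siRNA throughout: a negative value is lower with HIF1A siRNA, a positive value lower with HIF2A siRNA. A gene was called at an adjusted p under 0.05 in the quasi-likelihood test of edgeR with replicate number as a block. Library totals lay between 13747603 and 20159408 in the 6 libraries, and replicate number took 65.3% of the variance of log2 CPM against 18.7% for the siRNA. Pair 2 was the noisiest, with a spread of the log2 ratio over all genes of 0.454 (scaled median absolute deviation) against 0.239 in pair 1 and 0.218 in pair 3. Of the ccRCC markers, 7 of 7 were above 1 CPM, and their sum was 4578 to 5942 CPM with HIF1A siRNA and 3975 to 5314 CPM with HIF2A siRNA. Most of each sum was VIM, at 2928 to 4799 CPM over the 6 libraries, so the sum mainly follows VIM. KRT8 was at 390 to 570 CPM, PAX8 at 215 to 295 CPM and EPCAM at 32.3 to 61.1 CPM. Endothelial markers reached 1 CPM in 0 of 4 cases (PECAM1 had 0 counts in all 6), pericyte and fibroblast markers in 4 of 5 (sum 34.7 to 63.7 and 41.2 to 99.3 CPM) and immune markers in 1 of 5 (sum 44.9 to 63.7 and 32.9 to 59.4 CPM), which was CD68. The leukocyte markers PTPRC and CD3E had 0 counts in all 6. In bulk RNA, fewer cells of a type and less RNA per cell cannot be told apart.

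HIF1A itself was at 14.99, 17.8 and 22.2 CPM with HIF1A siRNA and at 111, 117 and 136 CPM with HIF2A siRNA, replicates 1 to 3 in that order. The groups did not overlap, and the difference was -2.74 ± 0.12 (log2, SE, edgeR adjusted p = 2.11e-07). EPAS1 was at 101, 107 and 134 CPM with HIF1A siRNA and at 9.16, 11.9 and 9.33 CPM with HIF2A siRNA. Here too the groups did not overlap, with a difference of 3.48 ± 0.15 (edgeR adjusted p = 2.11e-07). Each pool thus lowered the transcript it was made against. With control siRNA, HIF1A was at 120.2, 58.2 and 112 CPM and EPAS1 at 163, 138 and 171 CPM. All 3 HIF1A siRNA libraries had less EPAS1 than the control library of their number. ARNT, the shared partner, was at 32.8, 30.7 and 39.7 CPM with HIF1A siRNA and at 26.9, 21.95 and 35.1 CPM with HIF2A siRNA, and its difference of 0.31 ± 0.13 did not pass the test (edgeR adjusted p = 0.32). For ARNT2, a related partner, the difference was 0.08 ± 0.13. HIF3A did not pass the filter on low counts.

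Of 12589 genes tested, 275 differed. With HIF1A siRNA 210 were lower (1.67% of the genes tested), and with HIF2A siRNA 65 were lower (0.516%). In 992 genes, 7.88% of those tested, the 3 values with one siRNA did not overlap the 3 with the other. Among the called genes this held for 171 of the 210 and 33 of the 65. With 3 values per group, such separation is also common without any difference. The 992 are therefore not a count of genes that differ, and a lack of overlap is only a description. The genes lower with HIF1A siRNA had a median log2 difference of -0.95, and 90 of them exceeded 1 in size. Those lower with HIF2A siRNA had a median of 0.67, and 13 exceeded 1. All 275 had the same sign in the 3 pairs, but the blocked test used these same pairs, so this is not separate support. Pair 2 weighs on these counts: without it 651 genes were lower with HIF1A siRNA and 506 with HIF2A siRNA, including all 275. Without pair 3 the counts were 276 and 105. Without the replicate block they were 25 and 1.

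**Figure D1:**
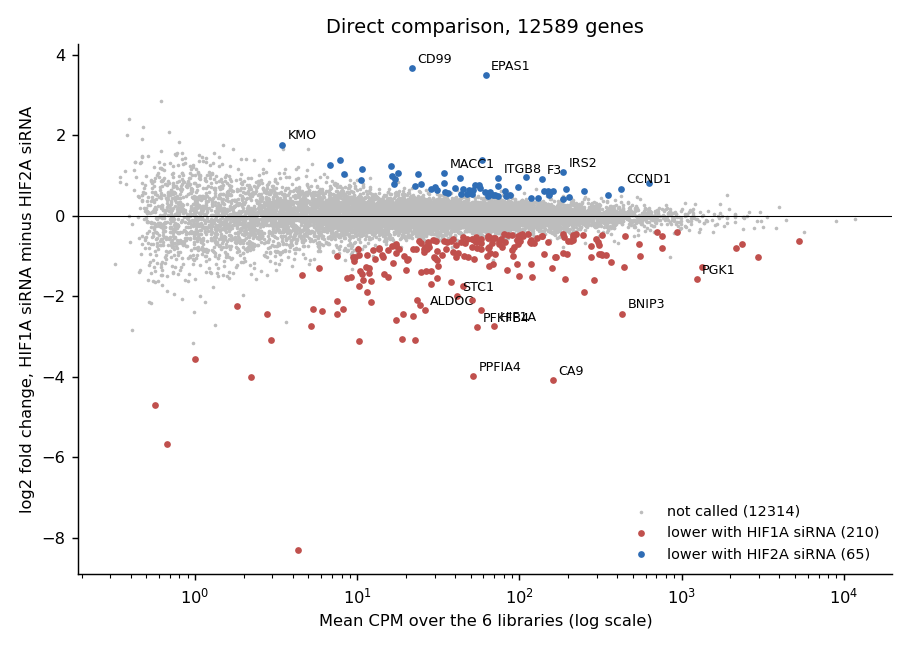
Log2 fold change of HIF1A siRNA minus HIF2A siRNA (vertical axis) against the mean CPM of the 6 libraries (horizontal, log scale) for 12589 genes, with 210 genes called lower with HIF1A siRNA in red, 65 called lower with HIF2A siRNA in blue and the others in grey. The red points reach further from 0 and to higher CPM than the blue ones, among which CD99 and EPAS1 stand apart.

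The promoters of 6 called genes are shown so that the presence or absence of the HIF core motif can be read in them. They are the 3 genes of smallest p in each direction that had a promoter in the RefSeq table, leaving out the targeted genes and CD99, whose counts are uncertain. Each sequence is the 250 bases before the transcription start in RefSeq (GRCh38.p14), 5′ to 3′ on the strand of the gene, with ACGTG and GCGTG on either strand in capitals. Among genes lower with HIF1A siRNA, PPFIA4 lies on the plus strand at chr1:203026241-203026490, BNIP3 on the minus strand at chr10:131981924-131982173 and CA9 on the plus strand at chr9:35673678-35673927. Among genes lower with HIF2A siRNA, MACC1 lies on the minus strand at chr7:20217385-20217634, ITGB8 on the plus strand at chr7:20330650-20330899 and IRS2 on the minus strand at chr13:109786584-109786833.
PPFIA4: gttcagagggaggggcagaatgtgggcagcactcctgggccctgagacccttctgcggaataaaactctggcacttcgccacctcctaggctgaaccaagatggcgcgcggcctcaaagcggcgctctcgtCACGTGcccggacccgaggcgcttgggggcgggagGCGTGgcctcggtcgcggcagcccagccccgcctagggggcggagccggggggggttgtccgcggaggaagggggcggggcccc
BNIP3: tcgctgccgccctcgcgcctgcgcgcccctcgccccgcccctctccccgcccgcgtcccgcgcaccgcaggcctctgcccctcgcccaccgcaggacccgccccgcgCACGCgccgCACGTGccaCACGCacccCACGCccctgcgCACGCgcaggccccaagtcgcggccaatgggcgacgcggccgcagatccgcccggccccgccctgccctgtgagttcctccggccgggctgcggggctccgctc
CA9: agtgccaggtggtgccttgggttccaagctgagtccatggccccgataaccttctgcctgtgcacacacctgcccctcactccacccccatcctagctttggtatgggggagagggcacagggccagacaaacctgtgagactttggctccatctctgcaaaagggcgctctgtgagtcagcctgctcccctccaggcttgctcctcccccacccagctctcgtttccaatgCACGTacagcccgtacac
MACC1: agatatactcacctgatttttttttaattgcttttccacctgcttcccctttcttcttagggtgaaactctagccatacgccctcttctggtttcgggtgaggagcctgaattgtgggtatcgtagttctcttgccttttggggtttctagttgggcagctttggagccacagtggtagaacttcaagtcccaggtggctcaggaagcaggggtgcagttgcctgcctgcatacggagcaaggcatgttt
ITGB8: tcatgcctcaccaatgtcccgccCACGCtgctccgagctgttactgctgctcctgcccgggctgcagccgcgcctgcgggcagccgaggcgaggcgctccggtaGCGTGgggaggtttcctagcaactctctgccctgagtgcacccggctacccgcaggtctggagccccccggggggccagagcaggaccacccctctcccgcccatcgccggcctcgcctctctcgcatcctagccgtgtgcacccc
IRS2: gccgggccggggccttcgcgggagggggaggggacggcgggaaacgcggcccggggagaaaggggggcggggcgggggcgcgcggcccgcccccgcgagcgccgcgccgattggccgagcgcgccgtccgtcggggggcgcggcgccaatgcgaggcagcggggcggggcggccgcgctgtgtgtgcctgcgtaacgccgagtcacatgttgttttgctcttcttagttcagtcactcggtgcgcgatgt

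PPFIA4 and BNIP3 both hold CACGTG, a palindrome that is read as ACGTG on each strand, and CA9 holds the reverse complement of ACGTG with its first base 18 bases before the start. BNIP3 has 4 further copies of GCGTG, all on the opposite strand. ITGB8 holds 2 copies of GCGTG and none of ACGTG, and neither motif is in the windows of MACC1 and IRS2. Over all genes tested, a promoter was matched for 9972 of 12589, of which 2364 (23.7%) held ACGTG on either strand. The share was 71 of 177 (40.1%) among the genes lower with HIF1A siRNA and 9 of 46 (19.6%) among those lower with HIF2A siRNA. With GCGTG counted as well, the shares were 57.9% over all genes, 68.4% and 47.8%. The median GC content was 67.6% in the promoters of genes lower with HIF1A siRNA, against 65.2% in the other group and over all genes. A match describes letters in a window and is not evidence of binding.

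The genes of largest difference among those lower with HIF1A siRNA were not glycolytic enzymes alone. CA9, the membrane carbonic anhydrase that serves as a ccRCC marker, was at 26.2, 20.7 and 9.15 CPM with HIF1A siRNA and at 312, 405 and 197 CPM with HIF2A siRNA. Its values did not overlap and differed by -4.09 ± 0.17 (edgeR adjusted p = 1.96e-07). PPFIA4, a liprin of the presynaptic scaffold family, was at 6.2, 6.69 and 5.11 CPM with HIF1A siRNA and at 126, 106 and 61.3 CPM with HIF2A siRNA, a difference of -3.98 ± 0.16 (edgeR adjusted p = 1.96e-07). Both genes were higher in every HIF2A siRNA library than in the control library of the same number, where CA9 was at 252, 283 and 144 CPM and PPFIA4 at 106, 86.4 and 58.3 CPM.

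RIMKLA, which makes N-acetylaspartylglutamate, was at 4.77, 8.56 and 2.29 CPM with HIF1A siRNA and at 44.1, 45.6 and 30.4 CPM with HIF2A siRNA, and NRN1, a neuritin that promotes neurite growth, at 3.5, 6.33 and 2.68 CPM with HIF1A siRNA and at 33.8, 43.97 and 22.7 CPM with HIF2A siRNA. Their differences were -3.08 ± 0.22 and -3.05 ± 0.17. APLN, the ligand of the apelin receptor, was at 7.42, 5.9 and 5.94 CPM with HIF1A siRNA and at 53.3, 33.5 and 25.7 CPM with HIF2A siRNA (-2.50 ± 0.17). In these 3 genes every HIF1A siRNA value was below every HIF2A siRNA value. MIR210HG, the host transcript of the hypoxia-induced miR-210, differed by -2.60 ± 0.17, but the miRNA was not measured. SPAG4 (-3.12), FAM115C (-2.73), ZP1 (-3.09), TMEM145 (-4.00), NIM1 (-3.56) and SPRY1 (-2.45), an antagonist of receptor tyrosine kinase signalling, were also among the 15 largest. Of these, TMEM145, ZP1 and NIM1 stayed under 1 CPM in all 3 HIF1A siRNA libraries.

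CCDC64B had almost no counts with HIF1A siRNA, 1 over the 3 libraries against 444 with HIF2A siRNA. The ratio was 0.225% (95% exact interval 0.00568 to 1.26%, counting error only). PTPRN had 1 count against 70, a ratio of 1.43% (0.0356 to 8.21%), and FAM153C 2 against 60, a ratio of 3.33% (0.394 to 12.6%). Fitted fold changes of these genes depend on the prior count and are not given.

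Of the 19 gene lists, that of glycolysis had the highest share of called members. Lists and members were chosen with earlier results of these data known. The shares given here and below therefore describe the lists and are not separate evidence. Of 22 genes of glucose uptake and glycolysis that were tested, 14 were lower with HIF1A siRNA and 0 lower with HIF2A siRNA, against 1.67% and 0.516% of all genes. The unadjusted p was under 0.05 for 18 and 1 genes in these directions, and DESeq2 called 14 and 0. The median difference of the 22 was -0.81, and that of all genes -0.00. PGK1, which makes ATP from 1,3-bisphosphoglycerate, was at 588, 616 and 668 CPM with HIF1A siRNA and at 1709.5, 1709 and 2161 CPM with HIF2A siRNA. The values were far apart in every pair, with a difference of -1.58 ± 0.09 (edgeR adjusted p = 3.01e-06). ENO2, the neuronal enolase, was at 178, 165 and 88.5 CPM with HIF1A siRNA and at 521, 489 and 281 CPM with HIF2A siRNA, a difference of -1.60 ± 0.10 (edgeR adjusted p = 3.01e-06). PFKFB4, which sets the level of the allosteric activator of phosphofructokinase, was at 16.3, 13.2 and 12.6 CPM with HIF1A siRNA and at 104, 105 and 77.5 CPM with HIF2A siRNA and had the largest difference of the list, -2.77 ± 0.13. ALDOC, an aldolase, was at 9.64, 6.91 and 9.34 CPM with HIF1A siRNA and at 38.7, 44.4 and 47.7 CPM with HIF2A siRNA (-2.34 ± 0.16).

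Further enzymes of the pathway were called as well. LDHA, which reduces pyruvate to lactate, was at 1996, 2457 and 1524 CPM with HIF1A siRNA and at 3980.5, 4130.0 and 3741 CPM with HIF2A siRNA. Its difference was -1.02 ± 0.11 (edgeR adjusted p = 3.26e-04), and the groups did not overlap. TPI1 (-1.28), HK2 (-0.99), GPI (-0.99), HK1 (-0.96), PFKL (-0.92), ALDOA (-0.81), PGAM1 (-0.80), ENO1 (-0.70) and GAPDH (-0.62) made up the rest of the 14. PFKP (-0.35), PFKFB3 (-0.38) and PKM (-0.30) did not pass the test. SLC2A1, the glucose transporter GLUT1, did not pass it either and leaned the other way. It was at 1216, 1165 and 1149.9 CPM with HIF1A siRNA and at 941, 935 and 936 CPM with HIF2A siRNA (0.32 ± 0.09, edgeR adjusted p = 0.113). With control siRNA it was at 1537, 1577 and 1595 CPM, so that all 6 libraries lay below the controls. Several of these enzymes have processed pseudogenes, and reads that did not map uniquely had been removed, so their levels are uncertain. PGAM4, a near copy of PGAM1, was called as well (-0.86) and is named after its value was seen.

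**Figure D2:**
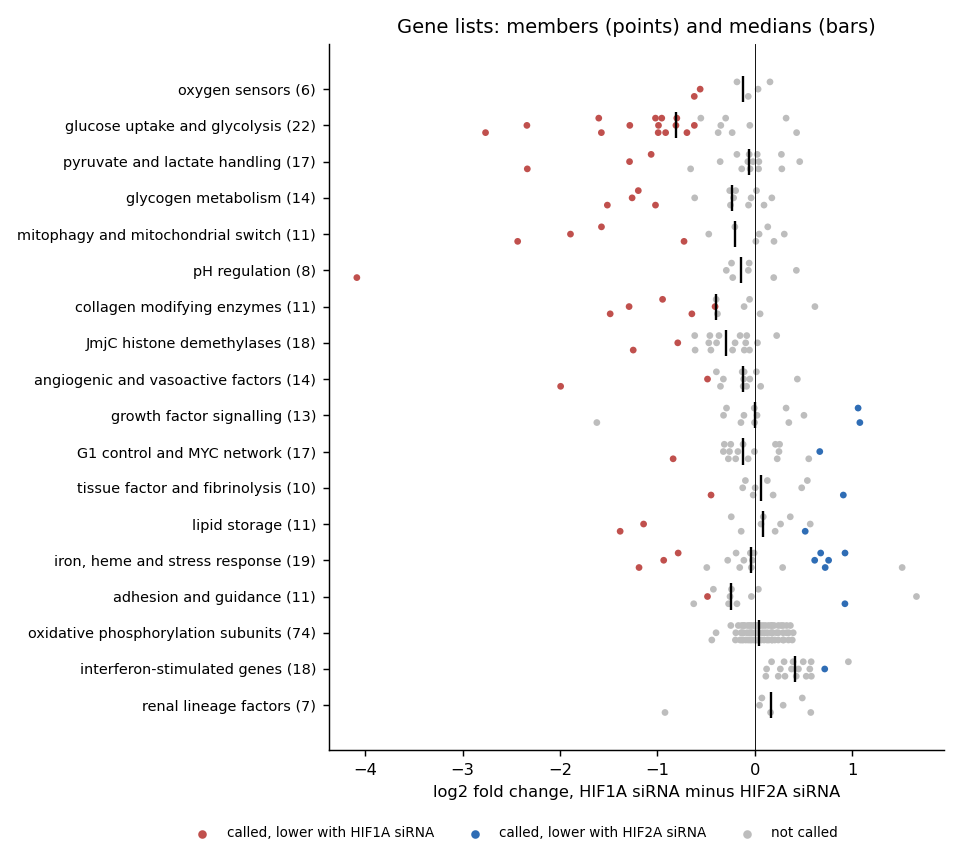
Log2 fold change of HIF1A siRNA minus HIF2A siRNA for each tested member (points) of 18 gene lists, with the number tested in brackets, the median as a black bar, members called lower with HIF1A siRNA in red, lower with HIF2A siRNA in blue and not called in grey. The glycolysis list is shifted as a whole to a median of -0.81, whereas the medians of the other lists lie between -0.40 and 0.41.

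Downstream of glycolysis, 3 of 17 genes of pyruvate and lactate handling were lower with HIF1A siRNA, against 1.67% of all genes, and the other 14 were not called. The list median was -0.06. PDK1, the kinase that shuts off pyruvate dehydrogenase, was at 20.1, 16.3 and 21.1 CPM with HIF1A siRNA and at 94.6, 104 and 91.1 CPM with HIF2A siRNA (-2.34 ± 0.14, edgeR adjusted p = 2.95e-06). SLC16A3, the lactate exporter MCT4, was at 289, 242 and 243 CPM with HIF1A siRNA and at 757, 563 and 569 CPM with HIF2A siRNA (-1.29 ± 0.10). Neither gene overlapped between the groups. The third, PDK3, differed by -1.06 ± 0.20 and lost its call without pair 1 (edgeR adjusted p = 0.0588). Of 14 genes of glycogen metabolism, again against 1.67% of all genes, 4 were lower with HIF1A siRNA: the synthase GYS1 (-1.51 ± 0.11), the branching enzyme GBE1 (-1.20 ± 0.10), PPP1R3C, which brings phosphatase to glycogen (-1.26 ± 0.13), and the phosphoglucomutase PGM1 (-1.02 ± 0.14).

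Of 11 genes of mitophagy and the hypoxic mitochondrial switch, 4 were lower with HIF1A siRNA, against 1.67% of all genes. BNIP3, a mitophagy receptor of the outer mitochondrial membrane, was at 155, 139.8 and 107 CPM with HIF1A siRNA and at 824, 779.6 and 565 CPM with HIF2A siRNA. All values with HIF1A siRNA were below all with HIF2A siRNA, by -2.44 ± 0.10 (edgeR adjusted p = 1.96e-07). Its relative BNIP3L was at 95.5, 99.3 and 92.3 CPM with HIF1A siRNA and at 271, 276 and 305 CPM with HIF2A siRNA (-1.57 ± 0.10). NDUFA4L2, the hypoxic counterpart of a respiratory chain subunit, was at 152, 156 and 38.7 CPM with HIF1A siRNA and at 516, 404 and 226 CPM with HIF2A siRNA and varied widely between replicates, with a difference of -1.89 ± 0.18 (edgeR adjusted p = 1.21e-04). LONP1, a mitochondrial protease, differed by -0.73 ± 0.10. Of 74 oxidative phosphorylation subunits, edgeR called 0 and DESeq2 0, an unadjusted p under 0.05 was found for 2 lower with HIF1A siRNA and 10 in the other direction, and their median was 0.04. Of 8 genes of pH regulation, CA9 alone was called, lower with HIF1A siRNA, against 1.67% of all genes.

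Of 11 enzymes that modify collagen, edgeR called 5 lower with HIF1A siRNA and 0 in the other direction, against 1.67% and 0.516% of all genes (unadjusted p under 0.05 in 7 and 0, called by DESeq2 6 and 0). LOX, which cross-links collagen, was at 56.3, 60.9 and 42.1 CPM with HIF1A siRNA and at 160.1, 142 and 137 CPM with HIF2A siRNA (-1.49 ± 0.12, edgeR adjusted p = 2.80e-05). P4HA1, a prolyl 4-hydroxylase subunit, was at 73.9, 97.4 and 106 CPM with HIF1A siRNA and at 163, 268 and 252 CPM with HIF2A siRNA (-1.29 ± 0.11). The groups did not overlap in either gene. PLOD2, a lysyl hydroxylase, differed by -0.95 ± 0.10, P4HA2 by -0.65 ± 0.10 and P4HB by -0.41 ± 0.09. P4HB lost its call without pair 1 (edgeR adjusted p = 0.358) and without pair 3 (0.179). The other 6 did not pass the test, among them LOXL2 (0.05) and P4HA3 (0.62) with values in the other direction. Of 18 JmjC histone demethylases, 2 were lower with HIF1A siRNA, against 1.67% of all genes: KDM4B (-1.25 ± 0.15) and KDM3A (-0.79 ± 0.12). DESeq2 called 3, the unadjusted p was under 0.05 for 9, all lower with HIF1A siRNA, and the list median was -0.30.

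Of the 6 oxygen sensors and their partners, EGLN1 and EGLN3, the hydroxylases that mark HIF-α, were lower with HIF1A siRNA, against 1.67% of all genes. EGLN1 was at 139, 164 and 190.3 CPM with HIF1A siRNA and at 230.3, 251 and 270.2 CPM with HIF2A siRNA (-0.62 ± 0.10, edgeR adjusted p = 0.00532). EGLN3 was at 55.9, 64.6 and 47.3 CPM with HIF1A siRNA and at 71.6, 94.4 and 79.98 CPM with HIF2A siRNA (-0.56 ± 0.12, edgeR adjusted p = 0.0282). The call of EGLN1 was lost without pair 1 (edgeR adjusted p = 0.0923) and that of EGLN3 without pair 3 (0.202). With both siRNAs EGLN3 was at 24.1, 25.1 and 15.97 CPM, below all 6 libraries with a HIF siRNA alone. VHL was at a mean of 46.9 ± 2.16 CPM with HIF1A siRNA and 42.5 ± 9.21 CPM with HIF2A siRNA (SD, n = 3).

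Genes lower with HIF2A siRNA came from other lists and differed less. Of 13 genes of growth factor signalling, edgeR called 2 lower with HIF2A siRNA and 0 with HIF1A siRNA, against 0.516% and 1.67% of all genes (unadjusted p under 0.05 in 5 and 0, called by DESeq2 3 and 0). IRS2, an adaptor of the insulin and IGF receptors, was at 253, 309 and 181 CPM with HIF1A siRNA and at 142, 164 and 62.9 CPM with HIF2A siRNA. The values did not overlap and differed by 1.08 ± 0.13 (edgeR adjusted p = 0.00108). MACC1, a regulator of MET expression, was at 63.6, 45.8 and 29.5 CPM with HIF1A siRNA and at 33.1, 21.8 and 12.8 CPM with HIF2A siRNA. The groups overlapped in level, since replicate 3 was low with each siRNA. The difference was 1.06 ± 0.13 (edgeR adjusted p = 7.72e-04), and all 3 pairs had the same sign, as in all called genes. The growth factor TGFA, at a mean of 79.8 ± 8.42 and 63.5 ± 7.22 CPM, did not pass the test (0.32 ± 0.11, edgeR adjusted p = 0.222).

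Members of other lists were also lower with HIF2A siRNA. The lists of G1 control and MYC network (17 tested), tissue factor and fibrinolysis (10) and adhesion and guidance (11) each had 1 call in each direction. Of all genes, 1.67% were lower with HIF1A siRNA and 0.516% with HIF2A siRNA. CCND1, the cyclin D1 of the G1 phase, was at 616, 634 and 313 CPM with HIF1A siRNA and at 388, 413 and 188 CPM with HIF2A siRNA (0.67 ± 0.09, edgeR adjusted p = 0.00243). The levels overlapped between groups, and replicate 3 was low with each siRNA. Every pair had the same sign, as in all called genes, which is not separate support. MXI1, an antagonist of MYC, was the called member of the same list in the other direction, at -0.84. F3, the tissue factor that starts coagulation, was at 173, 206 and 156 CPM with HIF1A siRNA and at 120.0, 74.1 and 92.4 CPM with HIF2A siRNA (0.91 ± 0.15, edgeR adjusted p = 0.00818), and the groups did not overlap. In the same list the protease PLAU was lower with HIF1A siRNA (-0.45), a call lost without pair 1 (edgeR adjusted p = 0.398) and without pair 3 (0.185). ITGB8, the integrin β8 chain, was at 100.1, 98.7 and 92.2 CPM with HIF1A siRNA and at 58.4, 53.5 and 41.9 CPM with HIF2A siRNA without overlap (0.93 ± 0.11, edgeR adjusted p = 9.95e-04), and its partner chain ITGAV was lower with HIF1A siRNA (-0.49), a call lost without pair 1 (edgeR adjusted p = 0.166).

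The list of iron, heme and stress genes had members called in both directions. Of 19, 3 were lower with HIF1A siRNA and 5 lower with HIF2A siRNA, against 1.67% and 0.516% of all genes. This list too was chosen with earlier results known, so its shares are only a description. HMOX1, which breaks down heme, was at 146, 117 and 106 CPM with HIF1A siRNA and at 77.4, 80.9 and 63.3 CPM with HIF2A siRNA (0.72 ± 0.11, edgeR adjusted p = 0.00519). CP, the ferroxidase ceruloplasmin, was at 62.1, 65.8 and 81.2 CPM with HIF1A siRNA and at 39.9, 35.3 and 56.6 CPM with HIF2A siRNA (0.68 ± 0.12). Neither overlapped between groups. AHR (0.76), ARRDC3 (0.93) and TRIB3 (0.62) were lower with HIF2A siRNA as well, TRIB3 not without pair 1 (edgeR adjusted p = 0.0971). TXNIP, an inhibitor of thioredoxin, was at 69.7, 62.3 and 72.3 CPM with HIF1A siRNA and at 104, 117 and 131 CPM with HIF2A siRNA (-0.79 ± 0.11, edgeR adjusted p = 0.00257), lower with HIF1A siRNA. The related arrestin ARRDC4 differed by -0.94 and DDIT4, an mTORC1 inhibitor, by -1.19. The arrestin-domain genes ARRDC3 and ARRDC4 therefore differed in opposite directions. In lipid storage, HILPDA (-1.38), an inhibitor of lipolysis, and the desaturase SCD (-1.14) were lower with HIF1A siRNA. The monoacylglycerol lipase MGLL (0.52) was lower with HIF2A siRNA, a call lost without pair 3 (edgeR adjusted p = 0.144). These 2 and 1 calls of 11 tested stand against 1.67% and 0.516% of all genes.

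The largest difference among genes lower with HIF2A siRNA, that of CD99, did not come from a fall with HIF2A siRNA. CD99, a surface protein of leukocytes and other cells, was at 23.2, 73.5 and 24.4 CPM with HIF1A siRNA and at 1.87, 5.6 and 1.91 CPM with HIF2A siRNA (3.67 ± 0.16, edgeR adjusted p = 2.42e-07). With control siRNA it was at 1.78, 2.56 and 2.79 CPM, close to the HIF2A siRNA libraries, and with both siRNAs at 25.7, 2.03 and 24.1 CPM. The 3 HIF1A siRNA libraries and libraries 1 and 3 with both siRNAs were thus high, and the other 7 low. CD99 lies in the pseudoautosomal region with identical X and Y copies, and fragments that did not map uniquely had been removed, so its counts are uncertain. What sets this pattern was not tested.

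Further genes of this direction were KMO, a kynurenine hydroxylase, at 3.5, 7.55 and 4.57 CPM with HIF1A siRNA and at 1.12, 3.05 and 0.795 CPM with HIF2A siRNA (1.77 ± 0.37, edgeR adjusted p = 0.0308), and OTUB2, a deubiquitinase, at 25.6, 20.1 and 22.9 CPM with HIF1A siRNA and at 8.79, 9.1 and 11.1 CPM with HIF2A siRNA (1.24 ± 0.17). CLEC4E, a C-type lectin best known from macrophages, was at 78.8, 67.8 and 102 CPM with HIF1A siRNA and at 33.1, 16.4 and 53.4 CPM with HIF2A siRNA (1.38 ± 0.17, edgeR adjusted p = 0.00111). The rule that names these genes requires the same sign in all 3 pairs. KMO lost its call without pair 3 (edgeR adjusted p = 0.0731). TGM2, a transglutaminase, was steady between replicates, at 140.2, 136 and 159 CPM with HIF1A siRNA and at 75.5, 73.4 and 75.3 CPM with HIF2A siRNA (0.95 ± 0.10, edgeR adjusted p = 3.89e-04). ASB2 (1.38), the chemokine CCL2 (1.17), MTSS1 (1.07), KIAA0513 (1.04), the sterol hydroxylase CYP27A1 (1.03) and PDZD2 (1.00) were also among the 15 largest. Against control siRNA, KIAA0513 and CYP27A1 differed by 0.86 and 0.90 (log2) with HIF1A siRNA and by only -0.18 and -0.12 with HIF2A siRNA. ASB2 (-1.51), CCL2 (-0.62), MTSS1 (-0.79) and PDZD2 (-1.22) were below control with HIF2A siRNA. KIAA0513 lost its call without pair 1 (edgeR adjusted p = 0.112) and without pair 3 (0.177).

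**Figure D3:**
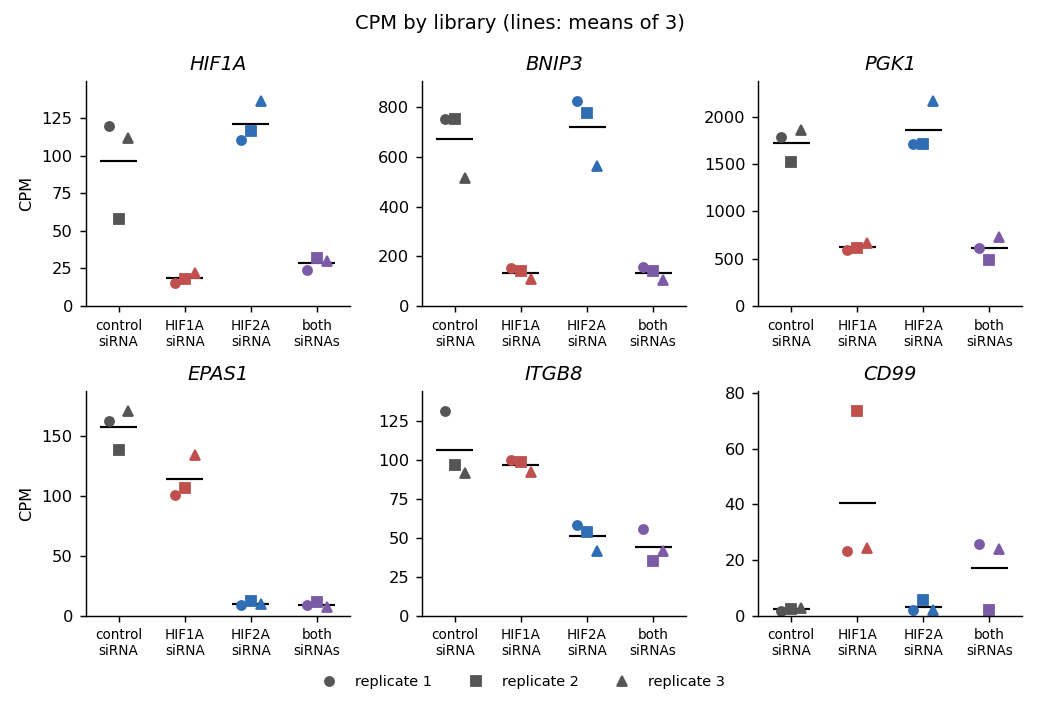
CPM (vertical axes from 0) of HIF1A, BNIP3, PGK1, EPAS1, ITGB8 and CD99 in each of the 12 libraries by siRNA, with the replicate number as the symbol and the mean of 3 as a line. BNIP3 and PGK1 are low wherever HIF1A siRNA is present, ITGB8 wherever HIF2A siRNA is present, and CD99 is high in the 3 HIF1A siRNA libraries and 2 of the 3 with both siRNAs.

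A direct difference can arise from a fall with either siRNA or a rise with the other, so the control libraries were set beside it. For the 210 genes lower with HIF1A siRNA, the median log2 fold change against control was -0.84 with HIF1A siRNA and 0.09 with HIF2A siRNA. In 200 of them HIF1A siRNA was below control in all 3 pairs, and in 49 HIF2A siRNA was above control in all 3. Both held in 42. For the 65 genes lower with HIF2A siRNA, the medians were -0.52 with HIF2A siRNA and 0.17 with HIF1A siRNA. HIF2A siRNA was below control in all 3 pairs in 49, HIF1A siRNA above it in 27, and both held in 17. The control libraries enter both contrasts, so the values stand side by side without a test between them. The genes were chosen for a difference between these same HIF1A and HIF2A siRNA libraries. That choice itself favours values on opposite sides of control, so the counts are not separate evidence. The same counts over all genes are not given.

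The 6 libraries with control siRNA or both siRNAs took no part in the direct comparison and gave a separate test of its genes. Against control siRNA, 1440 genes (11.5%) were lower with both siRNAs and 1169 (9.31%) higher, of 12553 tested. Of the 210 genes lower with HIF1A siRNA, 209 were tested there, and 180 (86.1%) were lower, with a median of -0.95. Of the 65 lower with HIF2A siRNA, 38 (58.5%) were lower, with a median of -0.45. These counts include HIF1A and EPAS1 themselves. Higher with both siRNAs were 6 and 4 genes, respectively.

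In the direction of HIF2A siRNA, the genes with large falls under both siRNAs were F3 (-2.40 ± 0.10), SYT13 (-2.14 ± 0.10), a synaptotagmin, and IRS2 (-2.08 ± 0.11). Others did not pass the test there, among them CLEC4E (-0.06 ± 0.13), CCL2 (0.08 ± 0.19), MTSS1 (-0.08 ± 0.16) and the cytokine IL6 (0.02 ± 0.13). CLEC4E was at 49.2, 40.1 and 96.7 CPM with control siRNA and 50.7, 50.8 and 66.6 CPM with both. Higher with both siRNAs, besides CD99, were ISM1 (1.13 ± 0.16), the hyaluronan synthase HAS3 (0.67 ± 0.15) and VAV3 (0.38 ± 0.13).

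The 6 genes lower with HIF1A siRNA that were higher with both siRNAs were PRICKLE1, a planar polarity protein, NTM, ENC1, SAMD11, RAPGEF3 and the kidney cadherin CDH16. PRICKLE1 was at 29.6, 31.01 and 68.5 CPM with HIF1A siRNA and at 58.4, 73.8 and 118 CPM with HIF2A siRNA, with 51.98, 35.3 and 64.9 CPM in the control libraries and 64.1, 47.2 and 129.7 CPM with both. All 6 had higher values with HIF2A siRNA than with control siRNA in all 3 pairs. SYT13, IL6, ISM1, HAS3, VAV3 and these 6 genes were picked after their values were seen.

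**Figure D4:**
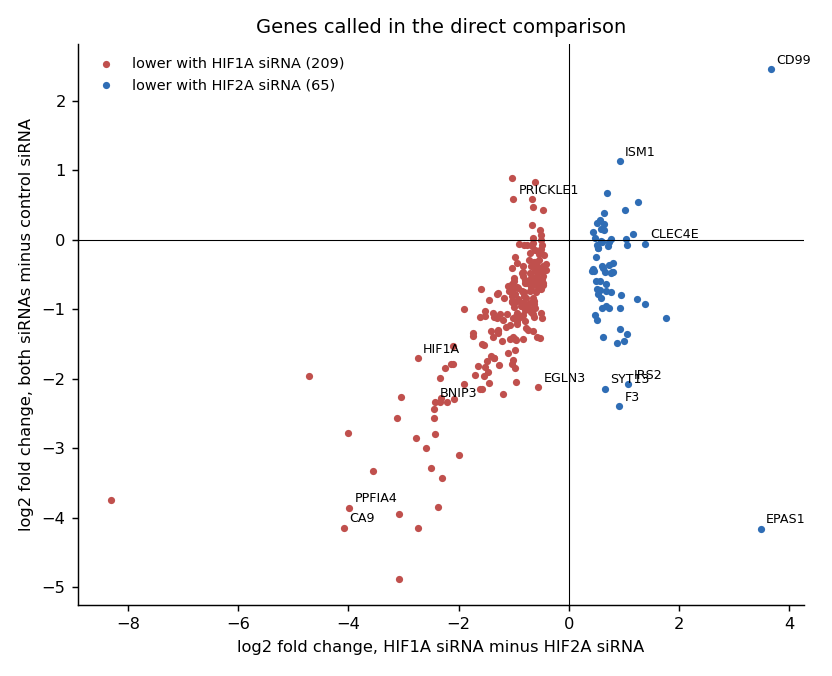
For the 274 called genes tested in both fits, the log2 fold change of both siRNAs minus control siRNA (vertical axis) is plotted against that of HIF1A siRNA minus HIF2A siRNA (horizontal), in red for genes lower with HIF1A siRNA (209) and blue for those lower with HIF2A siRNA (65). Most points of each colour lie below 0 on the vertical axis: 199 red points, 180 of them called, and 49 blue points, 38 of them called. Among the blue points F3, SYT13 and IRS2 lie well below 0 and CD99 and ISM1 above.

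Genes that fell with both siRNAs were set beside all genes in the direct comparison. Of 1436 genes lower with both siRNAs and tested in both fits, 180 (12.5%) were lower with HIF1A siRNA, 38 (2.65%) lower with HIF2A siRNA and 1218 (84.8%) not called. Over the 12408 genes tested in both fits, the shares were 1.68%, 0.524% and 97.8%. Among the 257 of them that fell by more than 1 on the log2 scale, the numbers were 98 (38.1%), 12 (4.67%) and 147 (57.2%). A missing call does not show that the siRNAs act alike: of the 147, the 95% interval of the direct difference lay within ± 0.5 for 23. Over all 12134 genes tested in both fits and not called, it did so for 6353.

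Of 14 angiogenic and vasoactive genes tested, 9 were lower with both siRNAs, against 11.5% of all genes. VEGFB (0.09), VEGFC (0.14), FGF2 (0.01), PDGFA (0.14) and PDGFB (-0.30) did not pass that test. Directly, 2 were lower with HIF1A siRNA, against 1.67% of all genes: STC1, a stanniocalcin, at 17.7, 23.8 and 8.56 CPM with HIF1A siRNA and at 94.02, 65.5 and 36.7 CPM with HIF2A siRNA (-1.99 ± 0.17, edgeR adjusted p = 5.06e-05), and STC2 (-0.49 ± 0.10). The call of STC2 was lost without pair 1 (edgeR adjusted p = 0.108), without pair 3 (0.2003), with the control libraries in the fit (0.0722) and without the block (0.99996). VEGFA, the main vascular growth factor, was at 129.8, 160.2 and 118 CPM with HIF1A siRNA and at 157, 165 and 118 CPM with HIF2A siRNA. The values overlapped, and the difference was -0.11 ± 0.10 (edgeR adjusted p = 0.664, 95% interval -0.34 to 0.11). All 6 lay below the 3 control libraries, at 249, 261 and 194 CPM, and above those with both siRNAs, at 66.9, 66.5 and 55.7 CPM. The vasodilator peptide ADM was at 74.9, 51.00 and 17.3 CPM with HIF1A siRNA and at 84.8, 42.4 and 20.3 CPM with HIF2A siRNA and differed by -0.05 ± 0.13 (95% interval -0.33 to 0.23). Its level followed the replicate more than the siRNA, with replicate 3 low in every group.

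Outside that list, CA12, another membrane carbonic anhydrase, was at 64.4, 70.6 and 31.8 CPM with HIF1A siRNA and at 60.2, 76.04 and 35.99 CPM with HIF2A siRNA (-0.07 ± 0.11, 95% interval -0.31 to 0.18), in contrast to CA9. PPP1R3B, a glycogen-targeting phosphatase subunit like PPP1R3C, was at 80.6, 88.6 and 94.6 CPM with HIF1A siRNA and at 92.03, 84.1 and 93.1 CPM with HIF2A siRNA (-0.04 ± 0.11, 95% interval -0.27 to 0.19). For these and for VEGFA and ADM, differences beyond 0.34 in size lay outside the intervals. The endothelin EDN1 had a wider interval, -0.02 to 0.89, and for SLC2A1 the interval was 0.12 to 0.52. These genes are among the 15 list members of 53 that fell by more than 1 with both siRNAs without a direct call, and they were picked after their values were seen.

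**Figure D5:**
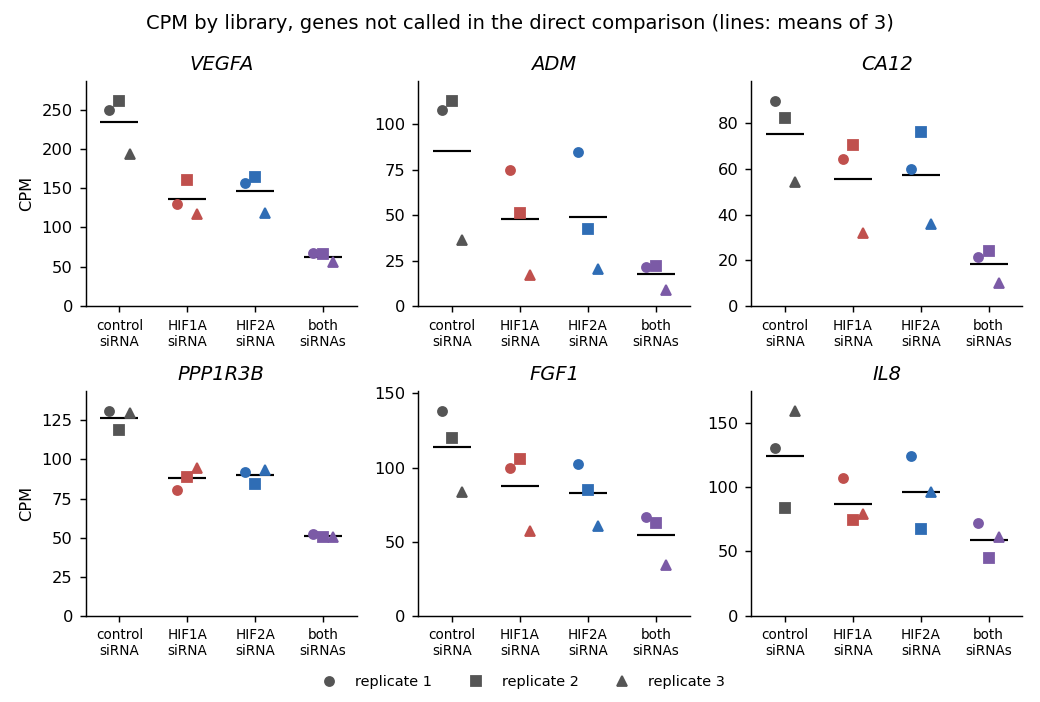
CPM (vertical axes from 0) of VEGFA, ADM, CA12, PPP1R3B, FGF1 and IL8 in the 12 libraries by siRNA, with the replicate number as the symbol and the mean of 3 as a line. In each gene the HIF1A and HIF2A siRNA libraries cover nearly the same range, with means below control siRNA and above both siRNAs.

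Interferon-stimulated genes had values on the same side of 0, and edgeR called 1 of 18 lower with HIF2A siRNA, against 0.516% of all genes. All 18 were higher with HIF1A than with HIF2A siRNA in the fit, with a median of 0.41, while 6186 of all 12589 genes had a positive value. At an unadjusted p under 0.05 there were 11, and DESeq2 called 2. These genes are induced together, so that they are not independent of each other. IRF7, a transcription factor of the interferon response, was the called member, at 71.7, 23.02 and 19.8 CPM with HIF1A siRNA and at 37.6, 17.2 and 11.4 CPM with HIF2A siRNA (0.72 ± 0.14, edgeR adjusted p = 0.0253), with control siRNA at 27.8, 36.1 and 17.1 CPM. The groups overlapped, and replicate 1 was high with each siRNA. Without pair 1 the call was lost (edgeR adjusted p = 0.274). IFIT1 (0.50 ± 0.12, edgeR adjusted p = 0.0516) and OAS1 (0.57 ± 0.14, edgeR adjusted p = 0.0821) did not pass the test. Renal lineage factors gave 0 calls of 7 in edgeR and 0 in DESeq2, with 2 at an unadjusted p under 0.05. PAX8, which marks renal epithelium, was at similar means of 257 ± 34.2 CPM with HIF1A siRNA and 243 ± 29.5 CPM with HIF2A siRNA (SD, n = 3). PAX2 differed by 0.49 ± 0.14 (edgeR adjusted p = 0.128).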

How the data were processed

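RNA was measured in RCC4 cells 48 h after siRNA transfection, in 12 libraries with 3 replicates per group. Per the paper's methods, polyA RNA was sequenced in pairs of reads, and the authors trimmed adaptors with Trim Galore (0.3.3), used HISAT2 (2.05) for alignment to hg19 and Picard (2.0.1) to drop fragments without a unique position, counted fragments per gene with HTSeq (0.5.4p3) and deposited raw counts of 23106 gene symbols per library. Whether counting used strand is not given in the sources used here, so genes overlapping on opposite strands cannot be told apart.

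From the deposited counts, HIF1A siRNA was compared with HIF2A siRNA in a fit of their 6 libraries with edgeR (4.0.16, R 4.3.3): TMM factors, the expression filter (12589 genes kept), replicate number as a block, the quasi-likelihood test and adjustment by Benjamini-Hochberg over all genes kept. Both siRNAs against control siRNA were fitted likewise on the other 6 libraries. The block follows the paper's methods, which pair conditions by biological replicate. Libraries of the same number deviated together from their group means, with correlations of 0.643, 0.232 and 0.777. Between unlike numbers they were -0.683 to 0.338, the highest between HIF1A siRNA replicate 2 and HIF2A siRNA replicate 1, so that HIF1A siRNA replicate 2 correlated less with its own number (0.232). Replicates of a group differed by more than sampling noise (chi-square per degree of freedom 16.3 to 111), and none were merged. In simulated counts drawn at the depth and fitted per-gene spread of this comparison, 12449 genes were fitted, 66 of them changed at each size. There 33.3% of changes of 0.5, 78.8% of 1 and 98.5% of 2 on the log2 scale were found, and 4.14% of 145 calls were false. The simulation gave every pair the same spread, whereas pair 2 was the noisiest in the data, so rates in the data may differ.

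CPM used library totals scaled by TMM factors over the 12 libraries, and pair ratios added 0.5 CPM. The genes named are HIF1A, EPAS1 and ARNT, in each direction the 15 with the largest difference among called genes with the same sign in 3 pairs and a mean of at least 1 CPM, and called or leading members of 19 gene lists. A gene that the rule names is not reported here. Members and lists were chosen with earlier results of these data known. Promoters came from RefSeq (GRCh38.p14), matched by symbol or, for 744 genes, an older symbol. Alternatives changed the scaling, filter, block, test (DESeq2 1.42.0), libraries fitted and threshold, or left out each replicate.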

Additional observations from a re-analysis of the deposited data

How the results depend on the processing

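The counts were 210 genes lower with HIF1A siRNA and 65 lower with HIF2A siRNA. Without a low-count filter they were 361 and 153, in DESeq2 259 and 105, with control libraries in the fit (9 libraries) 158 and 35, at an adjusted p under 0.1 305 and 122, and without the replicate block 25 and 1 (414 genes at an unadjusted p under 0.05). Leaving out 1 replicate gave 182 to 651 and 56 to 506, the highest without replicate 2, which kept all 275 genes and brought the share lower with HIF1A siRNA from 76.4 to 56.3% (96.2% without the block). Because libraries are paired, leaving out 1 library is the same as leaving out its pair, and the fits on 2 pairs lean on the spread shared across genes. In the test of both siRNAs against control siRNA, 180 and 38 of the called genes were lower. Without the block these were 51 and 4, and without 1 replicate 164 to 179 and 33 to 36. No named gene changed sign. Of 83 named genes called, 20 kept the call under all 10 alternatives and 48 lost it only without the block. Without replicate 1, KIAA0513, EGLN1, PDK3, P4HB, STC2, PLAU, TRIB3, ITGAV and IRF7 lost the call (edgeR adjusted p 0.0588 to 0.398), and without replicate 3 KMO, KIAA0513, EGLN3, P4HB, STC2, PLAU and MGLL (0.0731 to 0.202). With 9 libraries in the fit ASB2, KIAA0513, P4HB, STC2, PLAU, MGLL, ITGAV and IRF7 lost it. With 12 libraries SPRY1, KMO, ASB2, KIAA0513, PLAU, MGLL, ITGAV and IRF7 did. The cause was not tested. Differences of 0.5 on the log2 scale were often missed in the simulated counts.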

Other observations

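Among called genes outside the lists, picked here after their values were seen, several of amino acid and redox metabolism differed. SHMT2, the mitochondrial enzyme of one-carbon metabolism, was at a mean of 234 ± 30.2 CPM with HIF1A siRNA and 453 ± 20.2 CPM with HIF2A siRNA (SD, n = 3), a log2 difference of -0.97 ± 0.10 (SE, edgeR adjusted p = 2.86e-04). The alanine aminotransferase GPT2 (-0.78), the proline synthesis enzyme ALDH18A1 (-0.53) and the adenylate kinase AK4 (-0.98) were lower with HIF1A siRNA as well. In the other direction SLC7A5, a transporter of large neutral amino acids, was at 799 ± 123 and 456 ± 79.6 CPM (0.81 ± 0.11, edgeR adjusted p = 0.00189). ERO1L (-0.93), QSOX1 (-0.95) and PDIA3 (-0.42), which form disulfide bonds in secreted proteins, were lower with HIF1A siRNA. PDIA3 may share reads with its pseudogene PDIA3P (-0.58), so both are uncertain.

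Sterol and lipid regulators were also called. INSIG2, which holds SREBP in the endoplasmic reticulum, was at 18.5 ± 3.96 CPM with HIF1A siRNA and 57.4 ± 6.38 CPM with HIF2A siRNA (-1.65 ± 0.16, edgeR adjusted p = 1.84e-04), and SREBF1 differed by -0.89. The nuclear receptor RORA (-2.38) was lower with HIF1A siRNA, and the nuclear receptor PPARG (0.56) with HIF2A siRNA. Among surface and matrix genes, MUC1 (-1.21) and L1CAM (-1.03) were lower with HIF1A siRNA, and TIMP1 (0.46), ADAM19 (0.53) and the cytokine CSF2 (0.88) with HIF2A siRNA. PSG1 (0.58) and PSG4 (0.50) are near-identical paralogs, and their counts are uncertain.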
